A study of Mus musculus with 3 samples.

Results

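The clustered histone genes are the members described here: the 69 rows of the gene table, of 28692 in all, whose symbol starts with Hist1h (55 rows), Hist2h (11 rows), Hist3h (2 rows) or Hist4 (1 row). By symbol, 6 belong to the linker histone H1, 19 to H2A, 19 to H2B, 12 to H3 and 13 to H4. Hist2h2bb stands on 2 rows. GENCODE vM21 lists 1 of them, ENSMUSG00000050936, as Gm42743, a long non-coding RNA that overlaps the coding row on the same strand. It lists Hist1h2al, counted here with H2A, as a processed pseudogene. The study made 1 single-cell RNA library (10x Genomics 3′ chemistry, version 3) from small intestinal crypts, the glands that hold the stem and dividing cells of the gut lining, for each of 3 mouse genotypes. The control library is Olfm4-IRES-eGFPCreERT2; CDC42+/flox, so it carries 1 floxed and 1 intact copy of Cdc42, a small GTPase of cell polarity. The library labelled KO has the same Olfm4-IRES-eGFPCreERT2 allele with CDC42flox/flox. The library labelled Rescue has Olfm4-IRES-eGFPCreERT2 with CDC42flox/flox and, of the genes of the Hippo pathway co-activators YAP and TAZ, Yapflox/flox and Tazflox/+. All 3 are C57BL/6 adults of 2 to 3 months, digested with 3x TrypLE for 1 hour at 4000 to 5000 cells a library, and all carry a Cre that is active only with its ligand and is expressed from the locus of Olfm4, a gene of crypt base stem cells, so that cells outside that lineage keep their floxed alleles. How Cre was induced and how many animals gave a library are not given in the sources used here.

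Replication needs new histone protein in step with new DNA, and the clustered genes supply most of it. Their main transcripts are made in S phase, have no introns and end, without a poly(A) tail, in a stem-loop that is bound by the stem-loop binding protein SLBP. In non-dividing cells some of these genes also give longer polyadenylated transcripts. In the crypt, dividing transit amplifying cells lie between the stem cells and the differentiated enterocytes, goblet cells and Paneth cells. The 3′ chemistry primes on runs of A, so the counts hold polyadenylated transcripts and those primed at an internal A run; the unit is a UMI, 1 captured molecule, and no value was divided by transcript length. A UMI total of 1 member beside that of another therefore says how much was captured, and does not rank their expression.

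The 3′ ends are shown because this chemistry primes on A. Of the 67 members with a GENCODE vM21 gene (GRCm38), 53 lie on chromosome 13, 11 on chromosome 3, 2 on chromosome 11 and 1 on chromosome 6. Of the transcripts of these 67, 44 hold a 16-base match to the stem-loop, searched on the transcript strand as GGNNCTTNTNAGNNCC, and in 24 of the 44 the match is the same sequence as in Hist1h2ap. In 4 of the 44 a run of at least 6 A lies within the 20 bases before the match: Hist1h2ap and Hist1h2ao (a run of 12 each, in the same window), Hist1h2ae (8) and Hist1h3c (7). The 30-base windows below end at the stem-loop, in capitals, and are shown for these members, Hist1h2ao apart, and for other members with a match that are described below.
Hist1h2ap: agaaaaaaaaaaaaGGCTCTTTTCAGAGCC
Hist1h2ae: gtaaaaaaaacaaaGGCTCTTTTCAGAGCC
Hist1h3c: gctatttaaaaaaaGGCTCTTTTAAGAGCC
Hist1h1c: ctaacaatccaaaaGGCTCTTTTCAGAGCC
Hist1h1e: cccaacaacccaaaGGCTCTTTTCAGAGCC
Hist2h3c2: ccattccccacaaaGGCTCTTTTCAGAGCC
Hist1h4d: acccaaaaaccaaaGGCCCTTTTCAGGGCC
In the epithelial cells described below, Hist1h2ap gave 9178 UMIs, Hist1h2ae 2523, Hist1h3c 170 and Hist1h2ao only 9. The part of the A run in these counts was not tested. Hist1h2ao shares 93.5% and Hist1h2ap 93.1% of its 50-base words with other transcripts, which leaves the count of each uncertain. The annotated transcript of Hist1h2ap (chromosome 13, 21833026 to 21833507, minus strand, 1 exon) ends 3 bases after the stem-loop. Those of Hist1h1c (chromosome 13, 23738808 to 23740367, plus strand) and Hist1h1e (chromosome 13, 23620629 to 23622558, minus strand) run 840 and 1153 bases past it, so the 3′ end of these annotated forms lies well beyond the stem-loop. Hist1h2bc (chromosome 13, 23684199 to 23692908, plus strand) has 2 exons and no match, and Hist1h1b (chromosome 13, 21779883 to 21780625, minus strand) has 1 exon and no match. A missing match describes the annotated sequence only, and does not show that the RNA lacks a stem-loop.

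The promoters of the family share motifs as well. Among the 59 members with a RefSeq promoter (GRCm38.p6, 250 bases before to 50 after the start, both strands searched), CCAAT was found in 84.7%, against 37.4% of 32851 promoters of the same length. TATAAA was found in 57.6% against 13.6%, the octamer ATTTGCAT in 20.3% against 1.74%, and AAACACA in 11.9% against 7.18%. The classes differ: CCAAT was in 100% of the H1, H2A, H2B and H3 promoters matched and in 25.0% of the H4 promoters, and AAACACA in 80.0% of the H1 promoters. A match is a description of the sequence and not a site of binding. The 250 bases before the start are printed for 2 linker histone genes whose counts moved in opposite directions between dividing and other cells, with these motifs other than the octamer, on either strand, in capitals: Hist1h1b at chr13:21780626-21780875, minus strand, and Hist1h1c at chr13:23738557-23738806, plus strand.
Hist1h1b: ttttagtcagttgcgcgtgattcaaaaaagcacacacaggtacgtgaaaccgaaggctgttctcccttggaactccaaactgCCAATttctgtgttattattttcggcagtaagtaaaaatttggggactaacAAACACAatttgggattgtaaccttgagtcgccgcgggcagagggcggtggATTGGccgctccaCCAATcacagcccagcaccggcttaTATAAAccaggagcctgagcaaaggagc
Hist1h1c: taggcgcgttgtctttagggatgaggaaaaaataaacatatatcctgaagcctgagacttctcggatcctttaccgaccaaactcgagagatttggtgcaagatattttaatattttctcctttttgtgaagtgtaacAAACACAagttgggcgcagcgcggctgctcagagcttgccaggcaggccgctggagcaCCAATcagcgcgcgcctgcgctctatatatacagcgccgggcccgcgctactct
Both windows hold AAACACA and CCAAT, and of this pair only the window of Hist1h1b holds TATAAA, at position -28 from the start.

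Epithelial cells were taken as barcodes with 2 or more UMIs of Epcam, none of the leukocyte gene Ptprc, a minimum of 500 genes and 1000 UMIs, and no more than 20% of UMIs from mitochondrial genes, which left 515 control, 1504 KO and 726 rescue cells. Cells with at least 2 UMIs of Mki67, a proliferation marker, numbered 77, 213 and 247, with a median of 44274, 51084 and 64297 UMIs; they are called Mki67-positive here. Cells with none numbered 374, 1197 and 415, with medians of 29005, 39561 and 40943 UMIs, and are called Mki67-negative. UMIs were summed over the cells of a class and given per 1000000 UMIs of that class (CPM); with 1 library a genotype there is no test between genotypes, and the 95% intervals, exact for counts, cover counting error only. The mitochondrial limit removed 3003, 1699 and 990 barcodes, so the kept cells are a smaller share of the control library than of the others. All 5 epithelial markers (Epcam, Cdh1, Krt8, Krt18, Krt19) were found in every class of every library. Enterocyte markers summed to 2024, 5882 and 1498 CPM in the Mki67-positive cells of control, KO and rescue and to 21071, 46989 and 18866 CPM in the Mki67-negative cells, and stem cell markers to 427, 102 and 191 against 268, 10.7 and 51.7 CPM. Paneth cell markers summed to 61465, 103 and 2987 against 94724, 1158 and 24309 CPM, and goblet markers in Mki67-negative cells to 8016, 27203 and 11559 CPM. T cell markers stayed between 1.04 and 19.6 CPM, and plasma and B cell markers between 1.72 and 11.8 CPM except 442 CPM in the rescue Mki67-negative cells. Cdc42 was not lower in the KO library (239, 332 and 340.4 CPM in Mki67-positive cells), but the labels do not name the floxed exon, and 3′ reads outside it check nothing. The libraries share 20 cell barcodes in all, and no barcode was an epithelial cell in more than 1 library.

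Every member was accounted for. In these epithelial cells the family gave 52842 UMIs, of which 81.4% belonged to 6 members: Hist1h2bc (18992), Hist1h2ap (9178), Hist1h1c (8292), Hist1h2ae (2523), Hist1h1b (2038) and Hist1h1e (1985). In total 58 members had at least 20 UMIs (5 H1, 14 H2A, 15 H2B, 11 H3 and 13 H4), 6 had between 1 and 19, and 5 had none: Hist1h2bq, Hist1h2br, Hist1h1t, Hist1h2ba and Hist1h2aa. Hist1h1t and Hist1h2ba encode testis-specific H1 and H2B. Near-identical copies limit what a count means for 1 gene: 33 members share at least 50% of their 50-base words with another transcript, Hist1h2ap 93.1% and Hist1h2ae 43.2% of theirs, and Hist1h1b none.

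The summed family stood higher in Mki67-positive than in Mki67-negative cells in all 3 libraries. The control library held 527 CPM (504 to 550.4) in Mki67-positive and 364 CPM (354 to 375) in Mki67-negative cells. The KO library held 701 (687 to 716) and 472 (466 to 479) CPM, and the rescue library 682 (671 to 694) and 214 (207 to 221) CPM. The ratios were 1.45 in control, 1.48 in KO and 3.19 (3.08 to 3.31) in rescue, so the rescue library stands apart through its low level in Mki67-negative cells. Over genes with at least 50 UMIs in both classes the median of the same log2 ratio was itself above 0, at 0.33, 0.57 and 0.33. With that median set to 0 the family log2 ratio was 0.21, -0.00 and 1.34. Cells with exactly 1 UMI of Mki67 held 357, 401 and 183 CPM, close to the Mki67-negative value in control and below it in KO and rescue. Within the Mki67-positive cells, those with at least 6 UMIs of Mki67 held 562, 842 and 772 CPM, against 426, 319 and 407 CPM in those with 3 to 5 and 552, 354 and 282 CPM in those with 2.

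**Figure D1:**
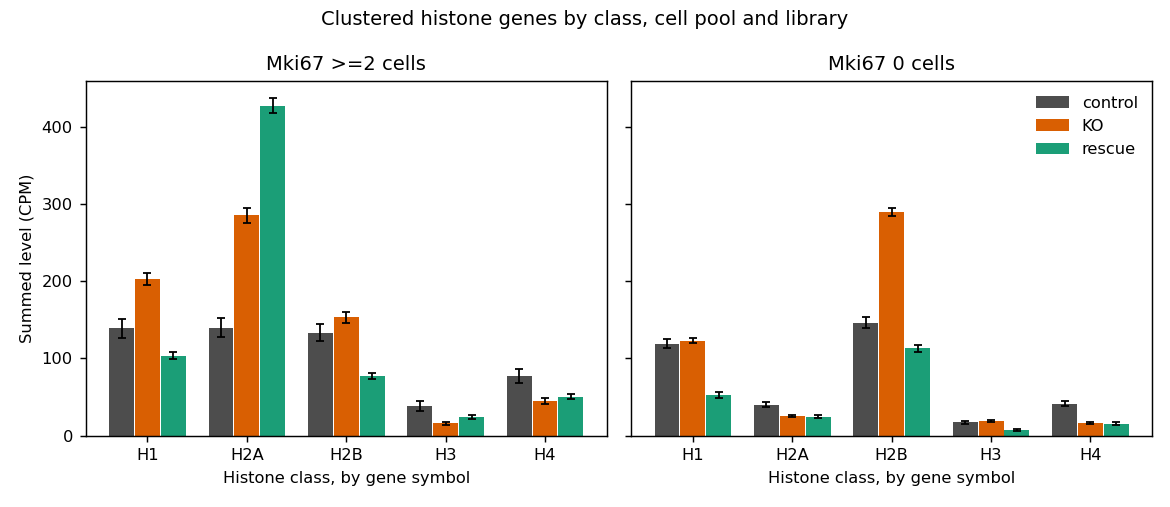
Summed level (CPM) of the H1, H2A, H2B, H3 and H4 members in Mki67-positive and Mki67-negative epithelial cells of each library; bars are 1 library each, with exact Poisson 95% intervals. H2A has the tallest bar in Mki67-positive cells of KO and rescue (285 and 427 CPM), and H2B, mostly Hist1h2bc, in Mki67-negative cells of all 3 libraries.

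Summed by class, H2A was higher in Mki67-positive cells in each library, while the H2B sum, which is mostly Hist1h2bc, was lower. H2A, which pairs with H2B in the nucleosome, stood at 139, 285 and 427 CPM in Mki67-positive cells of control, KO and rescue and at 40.4, 25.3 and 24.9 CPM in Mki67-negative cells, ratios of 3.45, 11.3 and 17.2. H2B stood at 133, 153 and 76.8 CPM in Mki67-positive and 146, 289 and 113 CPM in Mki67-negative cells, ratios of 0.909, 0.531 and 0.680. The control interval of H2B (0.823 to 1.000) reached 1. Without Hist1h2bc the other 18 H2B members summed to 29.8, 18.2 and 23.8 CPM in Mki67-positive cells of control, KO and rescue, and the ratios were 1.49, 3.70 and 4.36, the direction of H2A. Without Hist1h2ap the H2A ratios were 2.19, 3.74 and 5.13. H4 stood at 77.4, 44.7 and 50.6 CPM in Mki67-positive and at 41.7, 17.0 and 15.3 CPM in Mki67-negative cells (ratios 1.85, 2.62 and 3.31). H3, its partner, stood at 38.5, 15.9 and 24.3 against 17.2, 18.5 and 7.58 CPM (ratios 2.24, 0.857 and 3.20), with the KO interval (0.730 to 1.000) reaching 1. Without Hist2h3c2, which held 613 of the 819 H3 UMIs in KO Mki67-negative cells, the H3 ratios were 2.31, 3.22 and 3.71. The linker H1, which binds where DNA enters and leaves the nucleosome, stood at 139, 203 and 103 against 119, 123 and 53.0 CPM (ratios 1.17, 1.65 and 1.95), and without Hist1h1b the H1 ratios were 0.952, 0.875 and 1.31. H2A made up 26.5%, 40.6% and 62.6% of the family's UMIs in Mki67-positive cells, and H2B 40.2%, 61.1% and 52.9% in Mki67-negative cells.

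**Figure D2:**
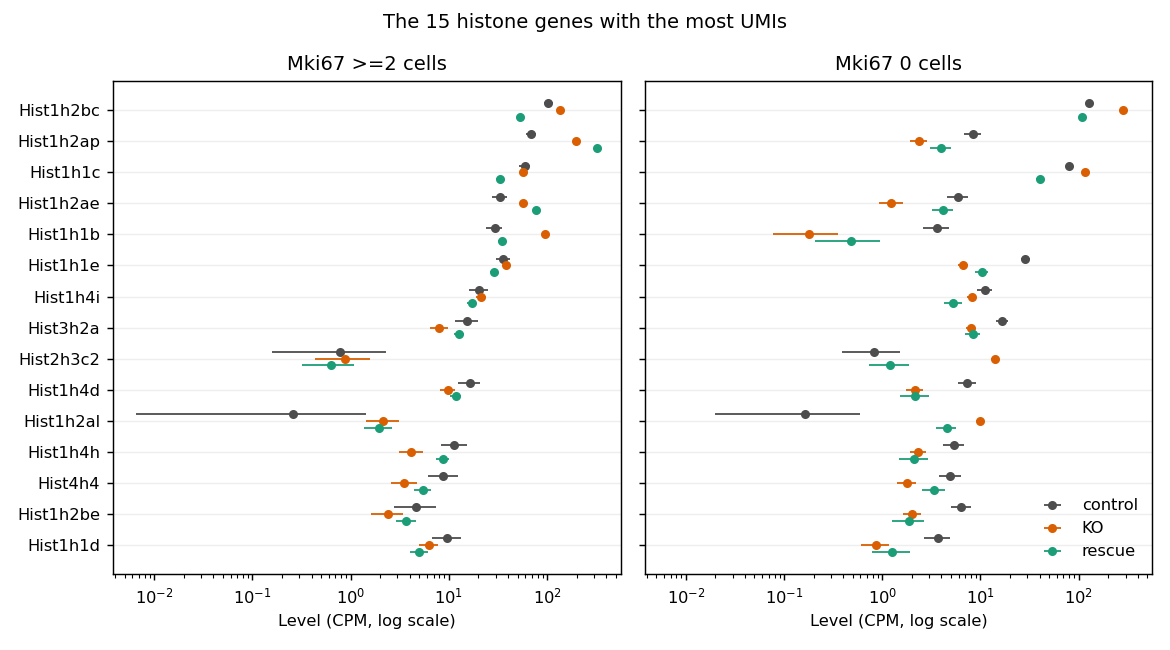
Level (CPM, log axis) of the 15 members with the most UMIs in Mki67-positive (left) and Mki67-negative cells (right); each point is 1 library, with its exact Poisson 95% interval. Hist1h2ap, Hist1h2ae and Hist1h1b lie far apart between the classes, while Hist1h2bc and Hist1h1c lie close together or higher in the Mki67-negative cells.

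A member was called where it had at least 20 UMIs, differed at least 2-fold and had an interval that excludes 1. The 20 UMIs were summed over the cells compared within a library. Between genotypes they were summed over all 3 libraries, so the library not compared counted too. In the control library 12 of 32 members were called higher in Mki67-positive cells and 0 lower, against 11.7% higher and 10.4% lower of all genes compared. In the KO library 20 of 34 were higher and 5 lower (37.0% and 12.8% of all genes), and in the rescue library 32 of 42 were higher and 2 lower (22.8% and 10.4%). The members' median log2 ratio was 0.68, 0.94 and 1.04, beside 0.21, 0.46 and 0.32 over all genes compared. Of 26 members compared in all 3 libraries, 9 were higher in each: Hist1h2ap, Hist1h2ae and Hist2h2ac (H2A), Hist1h1b and Hist1h1d (H1), Hist1h3e and Hist1h3c (H3), Hist1h2bj (H2B) and Hist1h4d (H4). Another 6 were higher in KO and rescue and not called in control, among them Hist1h1e and Hist1h4i. No member was called higher in 1 library and lower in another. These counts across the 3 libraries were not made over all genes. Hist1h2bc, Hist1h1c, Hist2h3c2, Hist1h2al and Hist2h3c1 were called lower in at least 1 library.

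Hist1h2ap, an H2A gene, was the member with the most UMIs in Mki67-positive cells of KO and rescue. It stood at 69.1, 199 and 319.9 CPM in Mki67-positive cells of control, KO and rescue and at 8.35, 2.35 and 3.97 CPM in Mki67-negative cells. The ratio was 8.27 (6.56 to 10.5) in control, 84.6 (69.5 to 104.0) in KO and 80.6 (63.2 to 104.0) in rescue. It was not spread evenly over cells: 53.2%, 46.5% and 24.7% of Mki67-positive cells had none, and the top 10% of them held 54.7%, 58.4% and 36.5% of its UMIs, with up to 32, 156 and 166 UMIs in 1 cell. With each cell thinned to 5000 UMIs, a UMI of it was seen in 19 of 76 cells in control (25.0%), in 60 of 213 in KO (28.2%) and in 125 of 244 in rescue (51.2%), against 46.8%, 53.5% and 75.3% unthinned. In Mki67-negative cells the thinned shares were 4.70%, 1.19% and 1.39%. Immune barcodes (Ptprc at least 2, Epcam none; median 4997, 5066 and 4848.5 UMIs) gave 2.31%, 1.85% and 8.72%. They held Mki67 themselves (14.7, 90.3 and 28.8 CPM), so they are no reference free of dividing cells for this gene.

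Hist1h2ae and Hist1h1b followed the same direction. Hist1h2ae, an H2A gene at chromosome 13, 23570517 to 23571220, stood at 32.9, 56.9 and 77.4 CPM in Mki67-positive and 5.89, 1.24 and 4.15 CPM in Mki67-negative cells (ratios 5.58, 45.8 and 18.6). Hist1h1b, a linker histone of dividing cells, stood at 29.2, 95.6 and 34.6 CPM against 3.60, 0.181 and 0.481 CPM, ratios of 8.12 in control, 529 (268 to 1228) in KO and 71.9 in rescue. The KO and rescue Mki67-negative values of Hist1h1b rest on 8 UMIs each, and in thinned cells 0 of 1012 KO and 0 of 359 rescue Mki67-negative cells had a UMI of it, which by 3 counts of the total allows up to 0.296% and 0.836% of thinned cells with a UMI, not a limit on cells that express it; unthinned, 0.585% and 1.69% had one. Hist1h1e, another linker histone, stood at 35.7, 38.6 and 28.5 CPM against 28.5, 6.71 and 10.3 CPM (ratios 1.25, 5.75 and 2.77). Its transcript overlaps Hist1h2be on the same strand, so reads there may be counted for either gene or for neither.

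**Figure D3:**
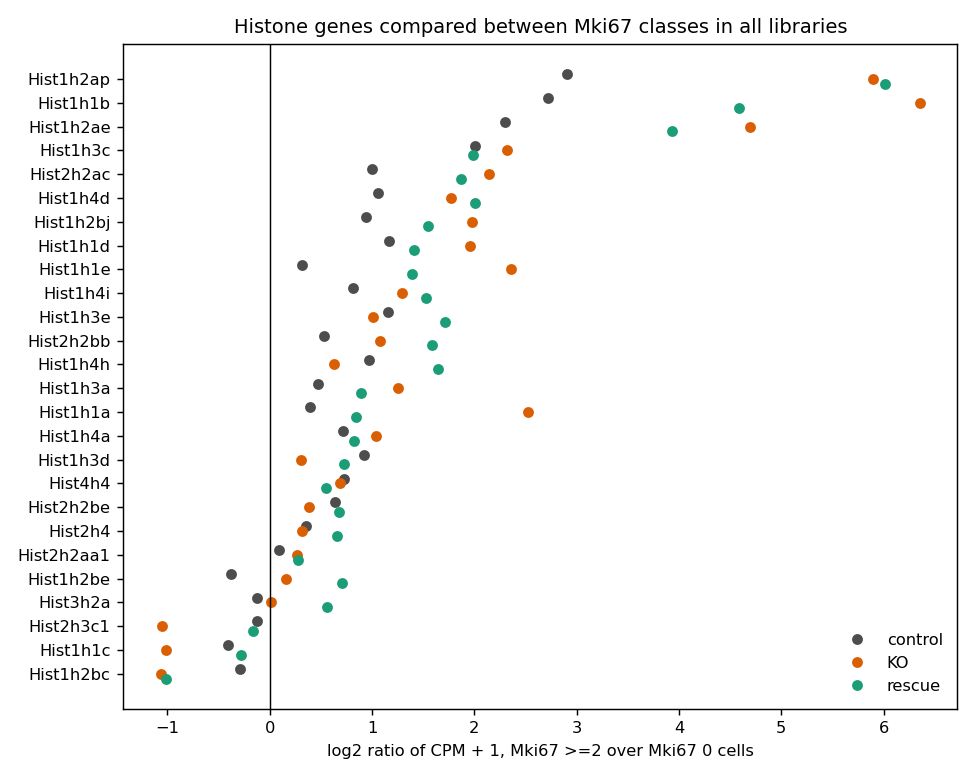
Ratio of Mki67-positive over Mki67-negative cells, as log2 of CPM plus 1, for the 26 members compared in all 3 libraries (Hist2h2bb is the row ENSMUSG00000105827); each point is 1 library and the line marks 0. Hist1h2ap, Hist1h1b and Hist1h2ae lie farthest to the right of the members plotted, and Hist1h2bc, Hist1h1c and Hist2h3c1 lie left of 0 in each library.

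Hist1h2bc and Hist1h1c went against this. Hist1h2bc, an H2B gene whose annotated transcript has a second exon and no stem-loop match, stood at 103, 135 and 53.0 CPM in Mki67-positive and at 126, 284 and 107 CPM in Mki67-negative cells, which is 1.22-, 2.10- and 2.03-fold lower in the Mki67-positive cells. Hist1h1c stood at 59.2, 56.5 and 33.0 against 79.3, 115 and 40.1 CPM, 1.34-, 2.03- and 1.22-fold lower. Hist1h2bc was widespread: thinned to 5000 UMIs, 36.6%, 66.8% and 41.2% of Mki67-negative cells had a UMI of Hist1h2bc (62.6%, 86.9% and 80.0% unthinned), against 5.78%, 18.5% and 3.59% of immune barcodes. By annotated end, as a description and beside 11.7%, 37.0% and 22.8% of all genes, the calls in Mki67-positive cells of control, KO and rescue were these. Of 22 members whose transcript runs over 100 bases past the stem-loop, 5 of 17, 10 of 19 and 10 of 17 compared were higher, and 3 were lower in KO. Of 22 that end within 100 bases of it, only 7, 9 and 12 could be compared, and 5, 7 and 11 were higher and 0 lower. Of 23 without a match, 2 of 8, 3 of 6 and 9 of 11 were higher, and 2 were lower in KO and 2 in rescue. These 23 are defined by the annotated transcript, which for some is short (312 bases for Hist1h4k, 381 for Hist1h2bl, 411 for Hist1h3h). A missing match there does not show that the RNA lacks a stem-loop.

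Within the Mki67-positive cells the family did not simply follow S phase genes. Cells in which UMIs of a 43-gene S phase list exceeded those of a 54-gene G2/M list numbered 14 of 77, 12 of 213 and 26 of 247, and 6, 21 and 25 cells lay near that cut. In all Mki67-positive cells the S phase list summed to 1799, 1741 and 1823 CPM and the G2/M list to 5753, 5269.9 and 6583 CPM. The cut therefore takes few cells, and those not past it can include cells in S phase. The family stood at 299.8, 444 and 449 CPM in the cells past the cut and at 596, 712 and 704 CPM in the others. The ratios were 0.503, 0.623 and 0.638, lower past the cut in each library. In control 0 of 16 members were called higher there and 5 lower, among them Hist1h2bc and Hist1h1c (2.96% and 6.53% of all genes compared). In KO 0 of 23 were higher and 2 lower, Hist1h2bc and Hist1h1b (5.30% and 5.38%), and in rescue 0 of 39 were higher and 3 lower (4.09% and 5.09%). The split into tertiles by the S phase share, added after these values were seen, gave another order. From the lowest to the highest tertile the family stood at 574, 660.4 and 352 CPM in control, at 476, 569 and 1081 CPM in KO and at 659.8, 626 and 772 CPM in rescue, so the direction against the S phase share turned in KO and rescue. Hist1h1b stood at 33.7, 62.2 and 197 CPM and Hist1h2ap at 95.6, 151 and 357 CPM in the tertiles of KO. In control the middle tertile was highest for both (43.2 and 92.2 CPM). Hist1h2bc went the other way, with 117, 115 and 80.1 CPM in control and 144, 146 and 114 CPM in KO.

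**Figure D4:**
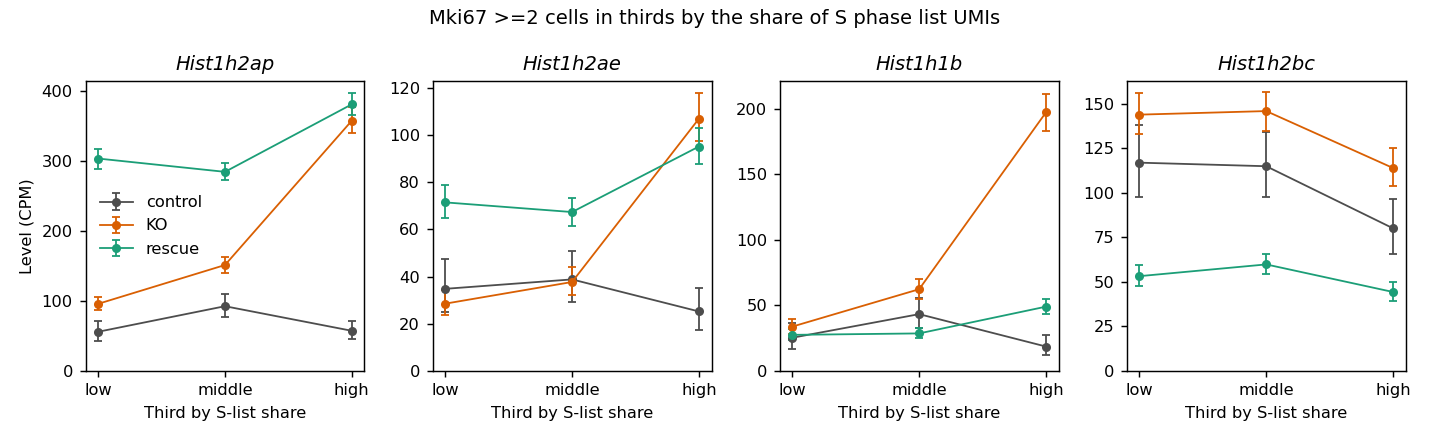
Level (CPM, exact Poisson 95% intervals) of Hist1h2ap, Hist1h2ae, Hist1h1b and Hist1h2bc in tertiles of the Mki67-positive cells of each library, ordered by the S phase share of S phase plus G2/M list UMIs (26, 26 and 25 control cells, 71 KO cells a tertile, 83, 82 and 82 rescue cells). In KO the first 3 of these genes are highest in the highest tertile, Hist1h1b to 197 CPM, while in control they are lower there than in the middle tertile.

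Between genotypes, the summed H2A and H1 were higher and the summed H3 and H4 lower in Mki67-positive cells of KO than of control. The family was 1.33-fold higher (1.27 to 1.40), H2A 2.04-fold (1.86 to 2.24), H1 1.46-fold and H2B 1.15-fold higher, while H3 was 2.43-fold and H4 1.73-fold lower. Without Hist1h1b the H1 sum was 109 CPM in control and 107 CPM in KO, a ratio of 0.981 (0.879 to 1.10), and without Hist1h2ap the H2A sum was 70.4 and 85.7 CPM, a ratio of 1.22 (1.07 to 1.40). Without Hist1h2bc H2B was 1.64-fold lower in KO. The direction of the family value depends on the cells kept: it was 0.41 on the log2 scale, 0.59 under stricter cell limits (27, 183 and 58 cells with no more than 10% mitochondrial UMIs, 1000 genes and 5000 UMIs), -0.62 with no mitochondrial limit (229, 225 and 287 cells) and -0.36 as a mean of per-cell CPM. Of 53 members compared, 4 were called higher (7.51% of all genes) and 19 lower (9.75%), with a median log2 ratio of -0.38 beside 0.04 over all genes. The 19 lower were 7 of 11 H3, 6 of 10 H4, 4 of 14 H2B, 2 of 13 H2A and 0 of 5 H1 members. The control Mki67-positive cells held 61465 CPM of Paneth markers against 103 in KO, and control immune barcodes held 39.0 CPM of H3 and 93.7 CPM of H4, as much as the control Mki67-positive cells; the part of either in these differences was not tested.

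The 4 higher members were Hist1h2ap, Hist1h1b, Hist1h2al and Hist1h2ab. Hist1h2ap was 2.88-fold higher (2.54 to 3.28), and Hist1h1b 3.27-fold, on 113 UMIs in control and 1200 in KO, with an interval that starts at 2.70. The top 10% of cells held 50.4% of the Hist1h1b UMIs in control and 65.6% in KO. A UMI of Hist1h1b was seen in 41.6% of control and 35.7% of KO cells, and in 10.5% and 16.9% of thinned cells. Hist1h2al had 1, 27 and 37 UMIs in control, KO and rescue, and Hist1h2ab had 4, 38 and 18, so both rest on few control molecules. Among the lower members, Hist1h3e (H3) stood at 10.3, 2.71 and 6.20 CPM in control, KO and rescue, 3.82-fold lower in KO than in control. The annotated end of Hist1h3e is shared with other transcripts, so its reads may come from more than 1 gene. Hist1h4h (H4) stood at 11.4, 4.14 and 8.69 CPM, 2.75-fold lower in KO, and Hist4h4 (H4) at 8.80, 3.51 and 5.41 CPM, 2.51-fold lower. Hist1h1c, Hist1h1e and Hist1h4i, the last at 20.2, 21.4 and 17.2 CPM, differed by less than 2-fold.

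The rescue library is compared with the same KO library, so both sets of ratios are not independent. In Mki67-positive cells the family was at 0.973 of the KO level (0.947 to 0.999), a difference of -0.04 on the log2 scale that turned to 0.37 under the stricter cell limits and to 0.54 with thinned cells. The classes did not move together: H2A was 1.50-fold (1.44 to 1.56) and H3 1.53-fold higher in rescue, H4 1.13-fold higher, while H1 and H2B stood at 0.509 and 0.501 of KO. Without Hist1h2ap the H2A sum was 1.25-fold higher in rescue, without Hist1h2bc the H2B sum was 1.31-fold higher, and without Hist1h1b the H1 sum was at 0.640 of KO. Hist1h2ap was 1.61-fold higher (1.54 to 1.69), which puts rescue 4.63-fold above control, and Hist1h1b was 2.76-fold lower than in KO, near the control value. Of 53 members, 9 were called higher (7.32% of all genes), among them Hist1h4h (2.10-fold), Hist1h3e (2.29-fold) and Hist2h3c1, and 6 lower (6.83%): Hist1h2bc, Hist1h1b, Hist1h1a, Hist1h2ab, Hist1h2ac and Hist1h2an. Against control, 4 of the 53 were higher in rescue (2.88% of all genes), namely Hist1h2ap, Hist1h2ae, Hist1h2al and Hist1h2bl, and 6 lower (6.24%). Among the 3 libraries, control was the highest for 32 of the 53 members and KO the lowest for 29. The same counts were not made over all genes. The Mki67-positive control cells held the fewest UMIs (3865241, against 12549069 in KO and 19208439 in rescue), so members with few UMIs are least certain there.

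**Figure D5:**
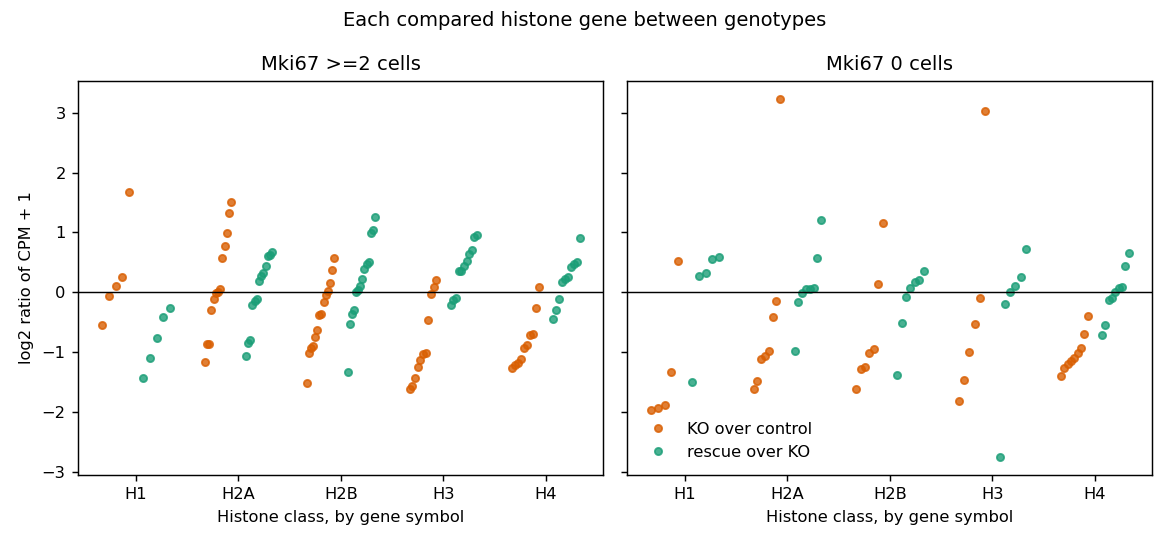
Ratio between genotypes, as log2 of CPM plus 1, in Mki67-positive (left) and Mki67-negative cells (right); each point is 1 compared member, sorted within its class, for KO over control and for rescue over KO, which share the KO library. The H3 and H4 points for KO over control lie mostly below 0, apart from Hist2h3c2 at 3.03 in Mki67-negative cells, where Hist1h2al of H2A lies at 3.23.

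In Mki67-negative cells, of 35 members compared, 26 were called lower in KO than in control (34.6% of all genes were) and 3 higher (10.3%), with a median log2 ratio of -1.06 beside -0.40 over all genes. The lower members include some called higher in Mki67-positive cells of each library: Hist1h1b was 19.9-fold lower (9.28 to 49.0), Hist1h2ae 4.74-fold and Hist1h2ap 3.55-fold lower. Hist1h1a, an H1 gene at 3.52, 0.226 and 0.842 CPM, was 15.6-fold and Hist1h1e 4.24-fold lower. Hist1h1a and Hist1h1e were called higher in Mki67-positive cells of KO and rescue, but not of control. Of the S phase list, 36 of 43 genes were lower as well (median -1.77), and 34 were higher in rescue than in KO (24.0% of all genes). The summed list stood at 666, 163 and 348 CPM. The summed G2/M list did not fall, at 814, 915 and 842 CPM, though 28 of its 46 genes compared were called lower in KO than in control and 1 higher. Markers of stem cells (268, 10.7 and 51.7 CPM), enteroendocrine cells (3598, 311 and 1040.0 CPM) and Paneth cells (94724, 1158 and 24309 CPM) moved in the order of the lower members named here. Their part was not tested. The 3 higher members were Hist1h2bc (2.25-fold, 2.13 to 2.37), Hist2h3c2 and Hist1h2al, and through Hist1h2bc the family sum was 1.30-fold higher (1.26 to 1.34). Enterocyte markers, at 21071, 46989 and 18866 CPM in control, KO and rescue, moved in the same order as Hist1h2bc (126, 284 and 107 CPM), and their part was not tested. Without Hist1h2bc the H2B sum was 4.07-fold lower in KO than in control. Without Hist1h2ap and Hist1h2bc the log2 value of the family turned from 0.37 to -0.30, and with no mitochondrial limit it was -0.42. On the scale of log2 of CPM plus 1, the stricter cell limits moved Hist1h2ap from -1.48 to -0.58, Hist1h2ae from -1.62 to -0.10, Hist1h1b from -1.96 to -1.07 and Hist1h2bc from 1.16 to 2.22.

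Hist2h3c2, an H3 gene on chromosome 3 (96238108 to 96239127, minus strand), had 10, 613 and 20 UMIs in Mki67-negative cells of control, KO and rescue, or 0.818, 13.9 and 1.20 CPM. KO was 16.9-fold above control (9.14 to 35.5) and rescue 11.5-fold below KO (7.39 to 19.0). In Mki67-positive cells it had only 3, 11 and 12 UMIs, so in KO it was 15.8-fold lower there than in Mki67-negative cells. Hist2h3c1, an H3 gene of the same cluster, was called lower there too (8 against 106 UMIs), while Hist1h3e, Hist1h3a and Hist1h3c were among the H3 members called higher. In thinned cells 6.32% of KO Mki67-negative cells had a UMI of it, against 0.336% in control and 0.279% in rescue, and 0 of 54 KO immune barcodes, which by 3 counts of the total allows up to 5.56%. Unthinned, 27.8% of the KO, 2.67% of the control and 4.34% of the rescue Mki67-negative cells had one. Within KO it stood at 31.2 CPM in the 131 cells with at least 5 UMIs of Ly6d and at 10.4 CPM in the 949 without Ly6d, at 14.4 CPM in cells with at least 2 UMIs of Alpi (an enterocyte enzyme) and at 5.91 CPM in cells with at least 10 UMIs of Muc2 (goblet mucin). Hist1h2al (chromosome 13, 51202727 to 51203065), which GENCODE lists as a processed pseudogene, had 2, 438 and 75 UMIs in Mki67-negative cells (0.164, 9.90 and 4.51 CPM). KO stood 60.5-fold (16.6 to 501.0) and rescue 27.6-fold above control, and rescue 2.19-fold below KO. It shares 67.6% of its 50-base words with other transcripts, so its reads may come from more than 1 gene.

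Rescue Mki67-negative cells held less of the family than those of KO, through Hist1h2bc and Hist1h1c. The family was 2.21-fold lower in rescue than in KO, Hist1h2bc 2.64-fold lower and Hist1h1c 2.86-fold lower. The H2B sum was 2.55-fold lower, and without Hist1h2bc 1.12-fold higher (0.864 to 1.43). Of 35 members, 4 were called higher (24.0% of all genes) and 6 lower (10.2%), with a median log2 ratio of 0.07 beside 0.23 over all genes. Against control, 1 member was higher in rescue (2.65% of all genes), Hist1h2al, and 24 lower (16.0%). The difference between control and KO in Hist1h2bc varied with lineage markers. Among cells with at least 2 UMIs of Alpi it stood at 189.8 CPM (n = 125 cells, control), 283 CPM (n = 1051, KO) and 117 CPM (n = 287, rescue), and among cells with at least 10 UMIs of Muc2 at 21.1 (71 cells), 317 (181 cells) and 38.4 CPM (40 cells). The summed family was 464, 466 and 216 CPM in the Alpi cells, level between control and KO, and 172, 587 and 130.3 CPM in the Muc2 cells. Paneth markers, given above, also differed between these libraries, and their part was not tested.

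Genes that make or handle histone mRNA were described for a list of 14. SLBP, which binds the stem-loop, stood at 106, 83.8 and 107 CPM in Mki67-positive and at 65.1, 18.8 and 46.4 CPM in Mki67-negative cells of control, KO and rescue, 3.47-fold lower in KO than in control among the latter. Npat, a co-activator of the histone gene clusters, stood at 17.6, 13.1 and 11.7 against 9.41, 3.84 and 3.67 CPM. In Mki67-negative cells 4 of 13 genes compared, SLBP and Npat among them, were called lower in KO than in control. This is near the 34.6% of all genes called lower. In Mki67-positive over Mki67-negative cells 3 genes of the list were called higher in control (Lsm11, Cpsf3 and Eri1), 12 in KO and 9 in rescue, of 13 compared, and 0 lower, beside 11.7%, 37.0% and 22.8% of all genes higher (median log2 ratio 0.84, 2.04 and 1.21). In Mki67-positive cells 1 of them, Lsm10 of the U7 particle that cuts histone mRNA, was higher in KO than in control (2.10-fold). Of 18 histone chaperones, which carry histones to DNA, 11, 16 and 14 were called higher in Mki67-positive cells, beside the same shares of all genes, with median log2 ratios of 1.19, 2.70 and 1.80. Between control and KO 0 of the chaperones were called in Mki67-positive cells (median 0.09), and 13 were lower in KO in Mki67-negative cells (median -1.34). Of all genes compared in the Mki67-negative cells 34.6% were lower, with a median of -0.40.

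Variant histone genes lie outside the clusters, and most of them give polyadenylated mRNA. In Mki67-positive over Mki67-negative cells 5 of the variant genes (11, 10 and 10 compared) were called higher in each library, in KO not far from the 37.0% of all genes, with medians of 0.73, 0.97 and 0.90, among them H2afz, which stood at 1553, 1706 and 2198 CPM against 388, 222 and 449.7 CPM. H2afx stood at 89.8, 93.1 and 189 CPM in Mki67-positive cells, 2.03-fold higher in rescue than in KO. H1fx, a linker variant, stood at 6.21, 0.717 and 6.98 CPM there, 8.66-fold lower in KO than in control and 9.73-fold higher in rescue than in KO, on 24, 9 and 134 UMIs. In those Mki67-positive cells H1fx was the 1 variant called between KO and control.

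By correlation of log2 CPM with the summed family over the 6 pools (3 libraries by Mki67 class), among 4373 genes with at least 100 UMIs in each, the genes most alike were Dot1l (Pearson r = 0.991), Itga6 (0.973), Rbm6 (0.967), Actn1 (0.959), 5730559C18Rik (0.954), Ing1 (0.948), Phf10 (0.946), Nsmce2 (0.945), Tab2 (0.937) and Plekha6 (0.937). Dot1l encodes a methyltransferase of histone H3. The 6 points share libraries and depth, and the order is a description without a test.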

How the data were processed

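Single-cell RNA was measured in 3 libraries, 1 per genotype. The authors deposited UMI counts per gene and barcode, not normalized; per the file headers Cell Ranger 3.0.2 wrote the control and KO matrices and 3.1.0 the rescue matrix, where the submitters' processing notes give 1.3.0. No source used here gives the genome build. Gene IDs were matched to GENCODE vM21 (GRCm38) for 67 of 69 members, and promoters to RefSeq (GRCm38.p6) for 59.

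The libraries hold 6152, 4786 and 3449 barcodes with 58433966, 85525811 and 64355665 UMIs (control, KO, rescue). After the limits on genes, UMIs and mitochondrial UMIs 1595, 2036 and 1897 were kept. UMIs were summed over cells of a class and divided by all UMIs of that class (CPM). The Mki67-positive sums held 3865241, 12549069 and 19208439 UMIs and the Mki67-negative sums 12217729, 44247054 and 16625207. Intervals are exact (Poisson for a level, conditional binomial for a ratio, Clopper-Pearson for a share above 0, 95%; a share of 0 is given the limit of 3 counts of the total) and cover counting error only. Python 3.11.15, numpy 2.4.6, scipy 1.17.1, pandas 2.3.3 and scanpy 1.11.5 were used, and the calls were tested on simulated data. Named members are the 30 with the most UMIs plus any other called between genotypes. Members, lists and markers were chosen with earlier results of these data known. Log2 ratios of members use a pseudocount of 1 CPM. Doublets were kept, and removing the highest simulated-doublet scores (20, 33 and 29 cells) was an alternative. Other alternatives were stricter cell limits, no mitochondrial limit, cells thinned to 5000 UMIs (shallower cells left out: 1, 0 and 3 Mki67-positive, 76, 185 and 56 Mki67-negative, 176, 51 and 251 immune), other totals, scaling and minimum counts.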

Additional observations from a re-analysis of the deposited data

Results flagged for a closer look

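Immune barcodes (Ptprc at least 2 UMIs, Epcam none; 349 control, 105 KO and 446 rescue) are not part of the epithelial comparisons and served there only as a reference. Members there with at least 20 UMIs over the 3 libraries that were called at least 2-fold above the control library are given as values. In the KO immune barcodes Hist1h2bc stood at 62.5 CPM against 16.9 in control, Hist1h2ap at 20.8 against 6.21 and Hist1h4i at 16.2 against 5.65. In the rescue immune barcodes Hist1h2ap stood at 129 CPM, Hist1h2ae at 41.0 against 12.4 and Hist1h1b at 13.4 against 4.52. Few barcodes held these 3 genes. Hist1h2ap was seen in 4.48% of rescue and 3.15% of control barcodes. Hist1h2ae was seen in 2.47% and 5.44%, and Hist1h1b in 1.35% and 2.29%. The KO values rest on 54 UMIs of Hist1h2bc, 18 of Hist1h2ap and 14 of Hist1h4i. No share of all genes called is given for these barcodes. In KO, Hist1h2ae (15.1 CPM) and Hist1h1b (6.95) were not called. Other members were lower than in control, among them Hist1h1e (50.2, 18.5 and 18.3 CPM in control, KO and rescue) and Hist1h4d (23.1, 2.32 and 8.93), and the family stood at 400.2, 248 and 353 CPM. Immune markers also differed between the libraries: T cell markers summed to 7675, 2568 and 7093 CPM, myeloid markers to 169, 22041 and 1799 CPM and plasma and B cell markers to 54.8, 91.5 and 2161 CPM, and Mki67 stood at 14.7, 90.3 and 28.8 CPM. Their part in the differences was not tested.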

How the results depend on the processing

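Of 128 alternative values of the family levels and counts of called members, 56 stayed close to the reported value, 58 moved and 14 turned in direction; of 668 for named members and class sums 473, 183 and 12 did so. Removing doublets turned none of the family values. The cause of each move was not tested. All family values below are log2 ratios. For KO over control in Mki67-positive cells (reported 0.41) the stricter cell limits gave 0.59, no mitochondrial limit -0.62, thinning 0.08, the mean of per-cell CPM -0.36, median scaling 0.31 and leaving out Hist1h2ap and Hist1h2bc 0.05. In the same order rescue over KO (reported -0.04) gave 0.37 with stricter limits, 0.54 thinned, 0.06 as a per-cell mean, 0.03 with median scaling and -0.25 without those members, and 0.06 with mitochondrial and ribosomal protein genes left out of the total. For KO over control in Mki67-negative cells (0.37) stricter limits gave 1.14, no mitochondrial limit -0.42, thinning 0.24, the per-cell mean -0.37, the reduced total 0.26, median scaling 0.68, leaving out those members -0.30, Alpi cells 0.01 and Muc2 cells 1.77. For rescue over KO there (-1.14) stricter limits gave -1.39, thinning -0.66, the per-cell mean -0.84, the reduced total -0.99, median scaling -1.38, leaving out those members -0.87 and Muc2 cells -2.17. For Mki67-positive over Mki67-negative cells, stricter limits gave 1.10 in control (0.53) and 2.31 in rescue (1.67). Without the mitochondrial limit the values in control, KO and rescue were 0.84, 0.64 and 1.76, thinned 0.91, 0.75 and 1.95, as per-cell means 0.40, 0.41 and 1.31, with the reduced total 0.65, 0.78 and 1.84, with median scaling 0.21, -0.00 and 1.34, and without those members 0.63, 0.98 and 1.60. For S phase over G2/M cells, stricter limits gave -1.61, -1.16 and -0.78 in control, KO and rescue (reported -0.99, -0.68 and -0.65), no mitochondrial limit -1.50 and the per-cell mean -1.59 in control, thinning 0.22 in KO, and the highest against the lowest tertile -0.71, 1.18 and 0.23; thinned rescue cells held no S phase cell and gave no value. With a minimum of 100 UMIs, KO over control in Mki67-positive cells called 2 members higher and 4 lower (reported 4 and 19), rescue over KO 2 higher and 3 lower (9 and 6), and in Mki67-negative cells KO over control called 11 lower (26) and rescue over KO 2 higher (4). With a minimum of 5 UMIs these last were 41 and 7. For Mki67-positive over Mki67-negative cells, members called higher (reported 12, 20 and 32 in control, KO and rescue) were 19 in control and 34 in KO with a minimum of 5 UMIs, 5, 7 and 10 with 100 UMIs, and 6 in control with median scaling. Among named members, on log2 of CPM plus 1, the stricter limits turned Hist3h2a, KO over control in Mki67-negative cells, from -0.98 to 0.18, and Hist2h2bb (ENSMUSG00000105827), rescue over KO there, from -0.51 to 0.02. Leaving out 1 member, chosen after seeing the data, turned class sums: without Hist1h1b, H1 was -0.03 for KO over control in Mki67-positive cells and -0.07 in control and -0.19 in KO for Mki67-positive over Mki67-negative cells. Without Hist1h2bc, H2B was -0.71 for KO over control and 0.39 for rescue over KO in Mki67-positive cells, -2.03 and 0.16 in Mki67-negative cells, and 1.89 in KO and 2.12 in rescue between these classes. Without Hist2h3c2, H3 was 0.45 for rescue over KO in Mki67-negative cells. No paired analysis was possible because each genotype has 1 library. At these depths a member with few UMIs cannot be called: the floor of 3 counts is 0.776 CPM in the control Mki67-positive cells and 0.156 CPM in those of rescue.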
